A study of Mus musculus with 3 samples.

Results

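The macrophages of the mouse cochlea were examined as the barcodes with a UMI in at least 3 of 5 genes, *C1qa*, *C1qb*, *C1qc*, *Csf1r* and *Cx3cr1*, among barcodes with 200 to 6000 detected genes and at most 15% mitochondrial UMIs. A UMI (unique molecular identifier) stands for 1 captured RNA molecule, read at its 3′ end. The macrophages, thus chosen by measured UMIs, were 606 of the 14378 barcodes within those limits (4.21%). There were 60 of 1662 at P14, 260 of 5651 in P28 replicate 1 and 286 of 7065 in P28 replicate 2. All other 13772 barcodes within the same limits served as the comparison.

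The study profiled dissociated cochlear tissue of C57/B6 mice at postnatal day 14 (P14) and day 28 (P28) by 10x single-cell RNA sequencing. Opening the bone lost some epithelium of the basal turn, which is therefore underrepresented. P14 was covered by a single library and P28 by 2, each of which pooled 14 cochleae of 7 mice, so that no cell can be traced to an animal. The labels give no genotype beyond the strain, no treatment and no sex, and they name no cell sorting. Where 3 values stand side by side below, they are in the order P14, P28 replicate 1, P28 replicate 2.

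Macrophages are phagocytes that live in nearly every tissue, depend on CSF1R signalling, take up dead cells and debris, and digest them in lysosomes. Many tissues hold a perivascular or interstitial type marked by *Lyve1*, *Mrc1* and *Folr2*, and another type with high MHC class II, which displays peptides to T cells. In the cochlea, macrophages have been described in the lateral wall, along the spiral ganglion and nerve, and beneath the sensory epithelium.

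The libraries held 10125255, 35485894 and 37530956 UMIs in 2513, 11948 and 18196 called barcodes. The macrophages held 305518, 994156 and 880476 UMIs of these. Their median depth was 4797.5 UMIs and 1898.5 genes at P14, 2470.5 UMIs and 1197 genes in P28 replicate 1, and 2265.5 UMIs and 1125.5 genes in P28 replicate 2. The P14 median thus lay above the upper quartiles of 4246.25 and 3575.75 UMIs at P28, and the other barcodes had more even medians of 2427, 2418 and 2026 UMIs. Thinned to 1000 UMIs each, macrophages showed a median of 629, 610 and 611 genes, and other barcodes 641, 645 and 636. Median mitochondrial shares of the macrophages were 5.99%, 9.05% and 9.91%. No barcode was removed as a doublet. No macrophage barcode sequence occurred in 2 libraries, while 10, 20 and 54 called barcodes were shared by the 3 pairs of libraries.

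Macrophages made up 3.61% of the barcodes at P14 (95% interval 2.77 to 4.62, exact binomial), 4.6% in P28 replicate 1 (4.07 to 5.18) and 4.05% in P28 replicate 2 (3.60 to 4.53). The intervals overlapped, and they cover counting error only. These shares also depend on how well each cell type survived dissociation, which was not measured.

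The 5 genes of the rule chose the cells, so their levels are a description. Levels are UMIs of a gene summed over a class in 1 library, scaled to 1000000 UMIs of that sum (CPM). *C1qa*, a chain of the complement initiator C1q, stood at 5001, 2813 and 2234 CPM in macrophages and at 3.23, 3.81 and 4.59 CPM in the other barcodes. *C1qb* stood at 3777, 2671 and 1871 CPM and *C1qc* at 3928, 2316 and 1705 CPM. *Csf1r*, the receptor for the growth factors CSF1 and IL-34, reached 1270, 875 and 887 CPM. *Cx3cr1*, the fractalkine receptor, reached 1607, 656 and 711 CPM. All of them were highest at P14. All 5 genes had a UMI in 43, 167 and 177 macrophages (71.7%, 64.2% and 61.9%), and exactly 3 had one in 8, 38 and 31.

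Barcodes just inside and just outside the rule differed in degree. Those with exactly 3 of the genes held 1873, 934 and 721 CPM of *C1qa* and 1648, 863 and 428 CPM of *Tyrobp*, a signalling adaptor of myeloid cells that the rule did not use. The 4, 47 and 65 barcodes with exactly 2 of the genes held 1300, 193 and 186 CPM of *C1qa* and 813, 297 and 341 CPM of *Tyrobp*. A single rule gene had a UMI in 60, 144 and 242 barcodes, and their *Tyrobp* stood at 156, 70.7 and 165 CPM.

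*C1qa*, *C1qc* and *C1qb* lie side by side on the minus strand of chromosome 4, at 136895917 to 136898803, 136889804 to 136893065 and 136880129 to 136886187 (GENCODE M21, GRCm38). The sequence within 250 bases upstream of the RefSeq start of 2 of them, and of *Pf4*, is printed to show where an 8-base motif falls. *Pf4* is a platelet-type chemokine gene among the most enriched in macrophages. The motif GAGGAAGT, or ACTTCCTC on the other strand, is the core bound by PU.1, the factor encoded by *Spi1*. Both strands of the 250 bases before each start were searched. Capitals mark a match, and bases in an annotated exon of any gene were left out (RefSeq, GRCm38.p6).
C1qb, chr4:136886201-136886450, minus strand: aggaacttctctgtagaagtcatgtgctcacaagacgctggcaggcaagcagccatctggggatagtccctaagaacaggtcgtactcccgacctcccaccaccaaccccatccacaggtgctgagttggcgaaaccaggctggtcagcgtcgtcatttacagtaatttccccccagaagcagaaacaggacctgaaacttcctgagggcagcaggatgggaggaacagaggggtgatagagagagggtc
C1qc, chr4:136893066-136893164, minus strand: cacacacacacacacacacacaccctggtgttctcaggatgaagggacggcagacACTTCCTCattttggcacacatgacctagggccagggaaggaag
Pf4, chr5:90772185-90772434, plus strand: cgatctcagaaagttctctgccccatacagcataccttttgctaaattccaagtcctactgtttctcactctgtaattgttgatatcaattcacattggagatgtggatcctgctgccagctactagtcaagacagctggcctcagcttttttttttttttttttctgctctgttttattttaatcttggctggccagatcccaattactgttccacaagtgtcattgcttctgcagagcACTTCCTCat
The match lay 10 bases before the start of *Pf4* and 195 bases before that of *C1qc*, and the window of *C1qb* held none. For *C1qc* the 195 bases include left-out exon bases, which lie between the printed 99 bases and the start. Of the 15 named higher genes 10 could be matched to a window (66.7%), as could 16 of the 24 macrophage identity genes (66.7%). Among all 27025 genes with such a window, 755 held the motif (2.79%). Of the 1378 genes that were higher in macrophages 1075 could be matched to a window (78.0%). Each of these sets lies under the 80% asked here for a share of a set, so the checks of these sets are void. A match is a string of letters and not a measured binding site.

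Genes that every macrophage is known for, and that the rule did not use, were high in the chosen barcodes in each library. *Tyrobp* stood at 2880, 1771 and 1490 CPM against 24.3, 9.24 and 23.3 CPM in the other barcodes. *Fcer1g*, its partner adaptor of Fc receptors, stood at 3070, 1758 and 1352 CPM against 14.9, 8.47 and 16.5 CPM. The transcription factor gene *Spi1* stood at 337, 231 and 161 CPM against 6.60, 1.78 and 3.26 CPM. In barcodes thinned to 1000 UMIs, *Tyrobp* was detected in 90.4%, 75.9% and 76.0% of macrophages and in 1.6%, 0.941% and 1.75% of the others. None of these levels overlapped between the classes in any library.

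**Figure D1:**
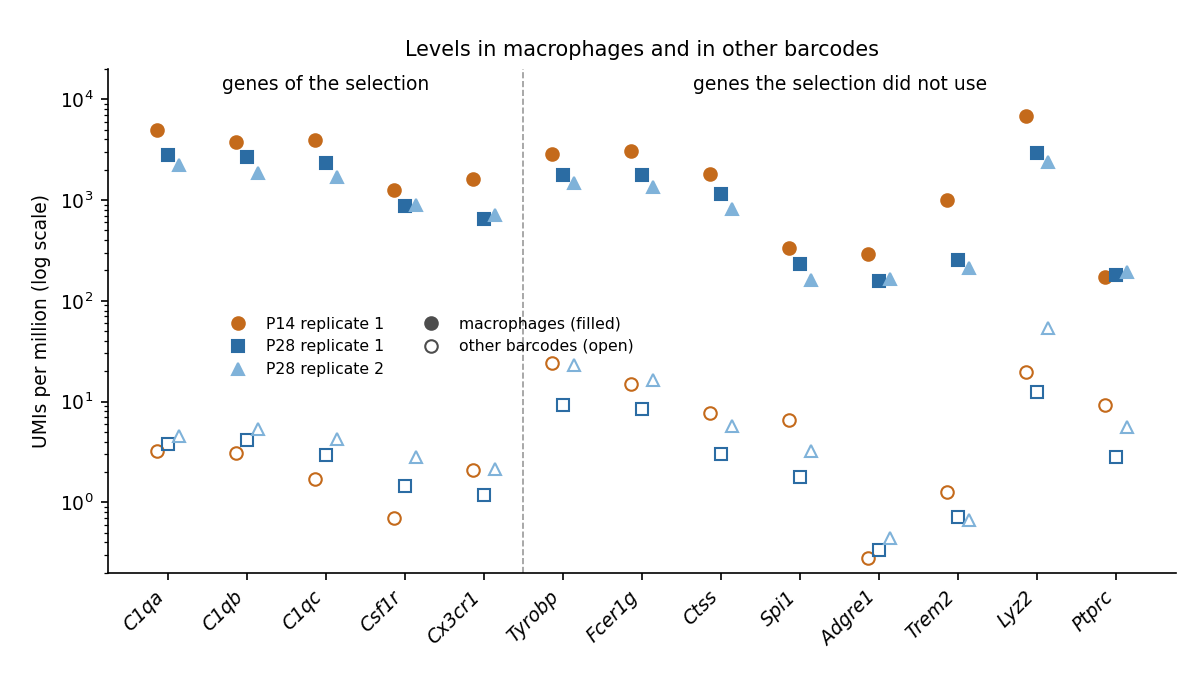
Levels in CPM (log axis) of the 5 genes of the selection and of 8 macrophage genes outside it, in macrophages (filled) and other barcodes (open) of each library. Every filled symbol lies above every open symbol of its gene, and the P14 library is highest for *Trem2* and *Lyz2*.

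Markers of T, NK and mast cells were nearly absent from the chosen barcodes. The summed level of 7 T and NK cell markers was 0, 1.01 and 0 CPM, and the 5 mast cell markers were all at 0. The 8 granulocyte markers summed to 0, 1.01 and 440 CPM, and in P28 replicate 2 a single barcode had 3 or more of them. The 7 monocyte markers summed to 22.9, 93.5 and 99.9 CPM, led by *Ccr2* at 22.9, 51.3 and 81.8 CPM. The classical monocyte markers *Chil3* and *Ly6c2* were at 0 at P14, and *Vcan* and *F10* were at 0 in all libraries. Among the 7 dendritic cell markers, *Siglech* led at 62.2, 80.5 and 49.97 CPM, and *Xcr1* and *Clec9a* were at 0 in all libraries. The 7 B lineage markers summed to 144, 662 and 587 CPM, against 871, 958 and 973 CPM in the other barcodes, and *Ebf1* alone stood at 118, 616 and 560 CPM. In each P28 library 1 macrophage barcode had 3 or more of them.

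Markers of cochlear cells were present in part of the macrophage barcodes. A barcode is called mixed here when it held 3 or more markers of 1 of 19 other cell type lists. Mixed barcodes numbered 11, 77 and 123 (18.3%, 29.6% and 43.0%), and their median depth of 8709, 4802 and 3396 UMIs exceeded the 3460, 2113 and 1815 UMIs of the others. Fibrocyte markers reached that number in 3.33%, 10.0% and 22.7% of the macrophages, and fibroblast markers in 1.67%, 10.8% and 13.6%. Among the other barcodes the same shares were 6.68%, 22.6% and 31.9% for fibrocyte and 17.9%, 12.2% and 12.8% for fibroblast markers. Erythroid markers summed to 7351, 2887 and 11545 CPM in macrophages and to 18274, 11632 and 16780 CPM in the other barcodes. Outer hair cell markers summed to 1358, 611 and 400 CPM, led by *Ocm*. Whether these are doublets, free RNA or engulfed material was not tested, and results that these markers move with are also given without mixed barcodes.

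The first comparison asked which genes set macrophages apart from the other cells of the cochlea. The UMIs of each class were summed per library, and the 3 sums of macrophages were compared with the 3 sums of other barcodes by edgeR's quasi-likelihood test with a term for the library and Benjamini-Hochberg adjustment (adjusted p-values below are from this test, which had no library term in the MHC II split). Both classes come from the same pooled animals, so the p-values measure how well a difference repeats over 3 libraries. At an adjusted p under 0.05, macrophages had higher levels of 1378 of 13481 genes (10.2% of all tested) and lower levels of 1168 (8.66%). Without the mixed barcodes the counts were 1900 and 2776, of which 1337 and 1093 were the same genes. Without the library term 494 were lower, and with at least 10 UMIs asked of every sum 832 were higher and 486 lower.

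The genes with the largest positive change included surface receptors of resident macrophages. *Lyve1*, a hyaluronan receptor shared with lymphatic vessels, stood at 232, 157 and 187 CPM in macrophages and at 0, 0.169 and 0 CPM in the other barcodes. It rose by 11.16 ± 0.56 on the log2 scale (SE, edgeR adjusted p = 5.62e-05, 3 libraries). *Mrc1*, the mannose receptor, stood at 2000, 504 and 631 CPM against 1.54, 0.763 and 1.03 CPM (log2 change 9.74 ± 0.33). *Cd209f*, a C-type lectin gene, stood at 265, 96.6 and 143 CPM against at most 0.281 CPM. *Stab1*, a scavenger receptor, stood at 1578, 525 and 644 CPM against 0.842, 1.14 and 1.74 CPM. In each of these genes the P14 level was the highest and the classes did not overlap.

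Further genes of this group also had little signal elsewhere. *C3ar1*, the receptor for the complement fragment C3a, stood at 213, 191 and 169 CPM against 0.281, 0.169 and 0.178 CPM. *Adgre1*, which encodes the macrophage antigen F4/80, stood at 295, 159 and 166 CPM against 0.281, 0.339 and 0.446 CPM. *Pf4* stood at 2756, 918 and 886 CPM against 0.702, 3.09 and 3.79 CPM. *Ccl12*, a monocyte-attracting chemokine gene, ran the other way over the ages, at 105, 673 and 349 CPM. *Ms4a14* had 40 UMIs in macrophages and 0 in the other barcodes, at least 325 times the level that 3 UMIs over those barcodes would give. *Folr2*, the folate receptor of resident macrophages, had 135 UMIs against 2, a ratio of 1646 with a counting interval of 447 to 13727. The remaining genes of the 15 with the largest rise were *Fcrls*, *Ms4a7*, *Ms4a6d*, *Cd86* and *Gpr34*, with log2 changes from 9.06 to 9.56.

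The 5 genes with the largest fall, *Smim18*, *Myl4*, *Dnajc5b*, *Ldhd* and *Prph2*, had 0 UMIs in the 606 macrophages. Their levels in other barcodes were at least 12.8, 8.63, 8.59, 8.18 and 6.19 times what 3 UMIs over all macrophages would give. *Prph2* encodes a photoreceptor membrane protein and *Myl4* a myosin light chain. Each of them was low in the other barcodes too, from 2.68 to 53.0 CPM.

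All 24 genes of a list of macrophage identity rose, with a median log2 change of 6.79, where the median over all genes tested was -0.17. Genes nearly absent from the other barcodes, such as *Adgre1* and *Trem2*, were tested only because of their macrophage level. They could only be called higher, so the counts of risen genes here and in the lists below are a description. *Ctss*, a lysosomal protease gene of phagocytes, stood at 1826, 1144 and 823 CPM and rose by 8.01 ± 0.37. *Trem2*, a lipid-sensing receptor, stood at 1011, 255 and 210 CPM against 1.26, 0.720 and 0.669 CPM. *Ptprc*, the pan-leukocyte gene for CD45, stood at 173, 182 and 194 CPM against 9.26, 2.80 and 5.62 CPM. *Mertk*, a receptor for the uptake of dying cells, changed least of the list (1.64 ± 0.33), since the other barcodes held 20.8, 22.4 and 22.8 CPM.

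Genes enriched in microglia, the macrophages of the brain, were present to very different degrees. Of 11 tested among 12, 9 rose and 2 fell. *Gpr34*, a lipid-sensing receptor gene, stood at 259, 122 and 123 CPM. *P2ry12*, the purinergic receptor that defines resting microglia, stood at 180, 44.3 and 30.7 CPM and *Tmem119* at 45.8, 116 and 99.9 CPM, against 21.0, 17.1 and 26.4 CPM of *Tmem119* in the other barcodes. *Sall1*, the transcription factor gene that defines microglia in the brain, fell by 2.32 ± 0.24, at 22.9, 15.1 and 11.4 CPM against 126, 90.4 and 56.6 CPM. *Sparc*, a matrix protein gene, fell by 1.28 ± 0.34.

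Of 8 genes tested on the CSF1, fractalkine and TGF-β axes, 5 rose. *Csf2rb* and *Csf2ra*, the chains of the GM-CSF receptor, stood at 49.1, 37.2 and 40.9 CPM and at 52.4, 103 and 103 CPM in macrophages. *Tgfb1* rose by 4.32 ± 0.33 and *Tgfbr1*, a receptor chain for it, by 3.04 ± 0.20. The ligand genes *Csf1* (log2 change 0.79 ± 0.57), *Il34* (0.09 ± 0.46) and *Cx3cl1* (-0.51 ± 0.28) did not pass the test. Without mixed barcodes the changes of these genes were -1.51, -3.01 and -2.11, of which that of *Cx3cl1* passed. The 3 genes stood at 6.03, 10.5 and 13.3 CPM, at 5.05, 9.70 and 12.8 CPM and at 25.5, 57.5 and 65.0 CPM in the other barcodes.

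In the complement list, besides the C1q genes of the rule, 8 of 16 genes tested rose and 1 fell, with a median log2 change of 1.04. The receptors led. *C5ar1*, the C5a receptor gene, stood at 36.0, 111 and 64.7 CPM, and *Itgam*, a chain of complement receptor 3, at 131, 76.4 and 61.3 CPM. *Cfp*, the activator properdin, stood at 190, 66.4 and 49.97 CPM. *Cd59a*, which blocks the lytic complex on the cell's own membrane, fell by 1.64 ± 0.33. The serum component gene *C3* was too low to be tested, at 9.82, 4.02 and 1.14 CPM.

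All 13 antigen presentation genes tested rose, with a median of 3.68. *Cd74*, the invariant chain that escorts MHC II, stood at 498, 1651 and 1503 CPM against 75.4, 25.3 and 29.9 CPM. *H2-Aa*, an MHC II chain, stood at 226, 376 and 457 CPM. *B2m*, the light chain of MHC I, stood at 1362, 1120 and 928 CPM against 125, 209 and 207 CPM. In the single P14 library *Cd74* and *H2-Aa* stood lower than in either P28 library and *B2m* higher, which was not tested.

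Uptake and digestion genes were also higher in macrophages. Of 16 scavenging genes tested 14 rose (median 7.07), as did 18 of 20 lysosome genes (median 2.28) and all 12 genes of the Lyve1 type (median 7.41). Genes such as *Lyve1*, *Folr2*, *Mrc1* and *Stab1* were tested only because of their macrophage level and could only be called higher. *Cd36*, a receptor for oxidized lipids, stood at 170, 103 and 135 CPM against 2.10, 0.890 and 0.937 CPM. *Msr1*, scavenger receptor A, rose by 7.73 ± 0.53. *Ctsd*, the acid protease cathepsin D, stood at 3879, 730 and 695 CPM against 324, 296 and 287 CPM, and *Ctsb*, cathepsin B, at 3394, 878 and 875 CPM. *Tyro3*, the sister receptor of *Mertk*, did not pass the test and stood at 0, 6.04 and 7.95 CPM against 9.26, 16.7 and 19.4 CPM.

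**Figure D2:**
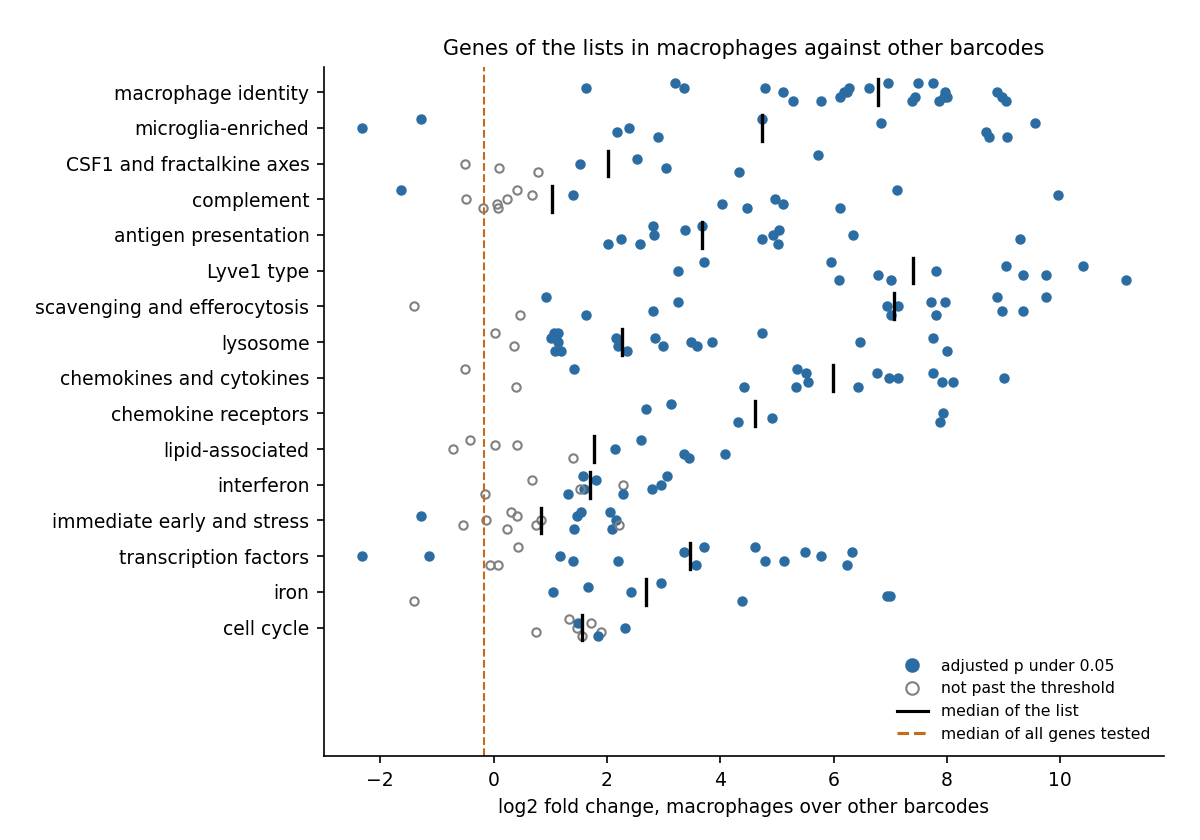
Log2 fold change of macrophages over other barcodes for each gene tested in 16 lists; filled points have an edgeR adjusted p under 0.05, black bars are list medians and the dashed line is the median of all genes tested (-0.17). The Lyve1-type list has the highest median (7.41) and the immediate early list the lowest (0.84). Genes nearly absent from the other barcodes could only be called higher.

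Signalling genes were also enriched. Of 16 chemokine and cytokine genes tested 14 rose, as did all 6 chemokine receptor genes. *Ccl3*, a chemokine gene of activated macrophages, stood at 68.7, 113 and 65.9 CPM, and *Ccl2*, which draws monocytes, at 26.2, 111 and 49.97 CPM. *Il1b*, the inflammatory cytokine, stood at 6.55, 49.3 and 49.97 CPM against 0.14, 0.339 and 0.357 CPM. *Ccr1*, a receptor for *Ccl3* and related chemokines, rose by 7.89 ± 0.29. *Igf1*, a growth factor gene, did not pass the test (0.39 ± 0.24), at 534, 130 and 182 CPM against 305, 148 and 166 CPM in the other barcodes.

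*Apoe*, the lipid carrier apolipoprotein E, was the most abundant gene named here. It stood at 43788, 16457 and 12865 CPM in macrophages and at 2033, 2122 and 2141 CPM in the other barcodes, and rose by 3.45 ± 0.35. Of 10 lipid-associated genes tested, 5 rose. *Spp1*, the secreted protein osteopontin, was not among them (-0.72 ± 0.62), at 111, 154 and 482 CPM against 45.5, 781 and 1033 CPM.

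Iron handling genes rose in 7 of 8 cases. *Slc40a1*, the iron exporter ferroportin, stood at 543, 82.5 and 116 CPM against 4.07, 0.763 and 1.07 CPM. *Hmox1*, which breaks down haem, stood at 259, 39.2 and 43.2 CPM. *Tfrc*, the receptor for iron uptake from transferrin, did not pass the test (-1.40 ± 0.50).

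Of 12 interferon-response genes tested, 8 rose (median 1.70). *Bst2*, which tethers viruses to the membrane, stood at 1064, 1095 and 526 CPM against 101, 192 and 90.9 CPM. *Irf7*, the factor that amplifies the response, stood at 22.9, 180 and 55.7 CPM. Among 15 immediate early and stress genes, 6 rose, 1 fell and the median was 0.84. *Fos* and *Jun*, induced within minutes of a stimulus such as tissue dissociation, rose by 2.10 ± 0.35 and 2.17 ± 0.24, and *Hsp90aa1*, a chaperone, fell by 1.28 ± 0.25. The paper describes a gentle trituration and then a stronger one, after part of the cells had been set aside. Cells of a library were thus not all dissociated alike. The part of dissociation in these levels was not tested.

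Among 18 transcription factor genes tested, 13 rose and 2 fell. *Mef2c* stood at 651, 491 and 475 CPM and *Irf8* at 193, 173 and 164 CPM. *Maf*, a factor of macrophage identity, rose by 3.72 ± 0.84. *Id2*, an inhibitor of DNA binding, fell by 1.15 ± 0.27. Of 9 cell cycle genes tested 3 rose, among them *Cdk1*, the mitotic kinase, at 49.1, 11.1 and 4.54 CPM against 12.3, 1.27 and 1.92 CPM. This count rested on single libraries: of 10 tested, 8 rose without P14, none without P28 replicate 1 (2 at an unadjusted edgeR p under 0.05), 4 without P28 replicate 2 and 7 without mixed barcodes. *Mki67* and *Top2a* did not pass the test (1.57 ± 0.52 and 1.90 ± 0.60).

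The second comparison set the macrophages against the B lineage, another class of leukocytes, chosen as 75, 21 and 37 barcodes with a UMI in at least 2 of 5 B lineage genes, among them *Cd79a*, *Cd79b*, *Ms4a1* and *Vpreb3*. Macrophages had higher levels of 273 of 4371 genes (6.25%) and lower levels of 192 (4.39%). The B lineage sums held 363651 UMIs, and asking at least 10 UMIs of every gene in every sum gave 28 higher and 53 lower, of which 11 and 53 were the same genes. Leaving out the P14 library, which held most of the B lineage, gave 110 and 117.

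The 8 genes with the largest rise against B lineage barcodes were all at 0 UMIs there. *Pf4* had 2535 UMIs in macrophages, at least 141 times the level of 3 UMIs over the B lineage. The bounds were 75.7 for *Ms4a7*, 50.4 for *Fcrls*, 41.6 for *Trem2*, 46.5 for *Aif1*, 39.4 for *Fcgr3*, 19.5 for *Slc40a1* and 29.4 for *Cd300c2*. In the other direction *Igkc*, the immunoglobulin light chain, stood at 2896, 5359 and 1750 CPM in B lineage barcodes and at 0, 0 and 12.5 CPM in macrophages. *Iglc3*, *Fcrla*, *Myl4*, *Pou2af1* and *Gm30211* had 0 UMIs in macrophages, and *Mzb1* and *Spib* had 1 UMI each. All 11 *Igkc* UMIs of the macrophages were in P28 replicate 2.

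For several leukocyte genes no difference passed the test, which does not show that the classes are alike. The log2 difference of *Ptprc* was 0.17 ± 0.32 and that of *Irf8* 0.11 ± 0.33. For *Cd74* the difference was -0.39 ± 0.37 and for *H2-Aa* 0.90 ± 0.37, with edgeR adjusted p = 0.60 and 0.19. *Spi1* (1.94 ± 0.36) and *Tyrobp* (5.31 ± 0.50) were higher in macrophages. Of 22 identity genes tested 19 were higher, of 20 lysosome genes 16, of 10 Lyve1-type genes 10, and of 9 antigen presentation genes 2. The Lyve1-type genes *Lyve1*, *Pf4*, *Folr2*, *Cd163* and *Cbr2*, and macrophage genes such as *Adgre1*, *Aif1* and *Trem2*, had 0 UMIs in B lineage barcodes. Such genes were tested only because of their macrophage level and could only be called higher, so these counts are a description. All 7 cell cycle genes tested were lower in macrophages, *Top2a* by -3.74 ± 0.52 and *Mki67* by -3.38 ± 0.54. These genes were tested mainly because of their B lineage level and could hardly be called higher, so this count is a description as well. *Cxcr4*, the receptor that holds B lineage cells in bone marrow, was lower by -2.15 ± 0.48.

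Macrophages differed among themselves in 2 groups of genes. To count them at equal depth, the 52, 237 and 275 macrophages with at least 1000 UMIs were thinned to 1000 UMIs. A macrophage was called MHC II-positive with a UMI in at least 2 of *H2-Aa*, *H2-Ab1*, *H2-Eb1* and *Cd74*, and Lyve1-type-positive with a UMI in at least 2 of *Lyve1*, *Mrc1*, *Cd163*, *Folr2*, *F13a1* and *Cbr2*. MHC II-positive macrophages were 4 of 52 at P14 (7.69%, exact binomial interval 2.14 to 18.5), 44 of 237 in P28 replicate 1 (18.6%, 13.8 to 24.1) and 48 of 275 in P28 replicate 2 (17.5%, 13.2 to 22.5). Lyve1-type-positive macrophages were 27 at P14 (51.9%, 37.6 to 66.0), 30 in P28 replicate 1 (12.7%, 8.71 to 17.6) and 50 in P28 replicate 2 (18.2%, 13.8 to 23.3). The Lyve1-type share at P14 lay above both P28 intervals, and the MHC II intervals overlapped between the ages.

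Without thinning, the Lyve1-type shares were 53.3%, 25% and 26.9% and the MHC II shares 6.67%, 22.7% and 20.3%. Thinned to 500 UMIs they were 20%, 8.46% and 12.9% for the Lyve1 type and 5%, 14.2% and 13.3% for MHC II. At 500 UMIs the Lyve1-type interval at P14 (10.8 to 32.3) overlapped both P28 intervals (5.38 to 12.5 and 9.27 to 17.4). Among unmixed macrophages at 1000 UMIs, the Lyve1-type shares were 53.7%, 15.5% and 22.2%. A call by 2 genes has no sharp edge: 11, 14 and 23 macrophages held exactly 2 of the Lyve1-type genes, and 9, 64 and 52 held 1. Other barcodes reached the Lyve1-type call in 0.0802%, 0% and 0.0659% of cases (0 of 4887 in P28 replicate 1, which allows up to 3 counts or 0.0614%) and the MHC II call in 1.28%, 0.368% and 0.494%, where B lineage barcodes are included.

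A macrophage that was positive for both was nearly missing. In all, 107 of the 564 macrophages were Lyve1-type-positive and 96 were MHC II-positive, and 1 was both. MHC II was called in 0 of 27, 1 of 30 and 0 of 50 Lyve1-type-positive macrophages (upper limits of the exact binomial interval of 12.8%, 17.2% and 7.11%). It was called in 4 of 25, 43 of 207 and 48 of 225 Lyve1-type-negative macrophages (16%, 20.8% and 21.3%). The exact intervals of the positive and negative sides did not overlap in P28 replicate 2 (0 to 7.11 against 16.2 to 27.3), but did in P28 replicate 1 (0.0844 to 17.2 against 15.5 to 26.9) and at P14. Without thinning, 8 of all 606 macrophages were positive for both. Thinned to 500 UMIs, 3 of the 606 were both, where 71 were Lyve1-type-positive and 78 MHC II-positive. Without mixed barcodes the counts were 0 of 22, 1 of 25 and 0 of 34 against 4 of 19, 35 of 136 and 28 of 119. Neither call was made in 40.4%, 69.2% and 64.4% of the macrophages.

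**Figure D3:**
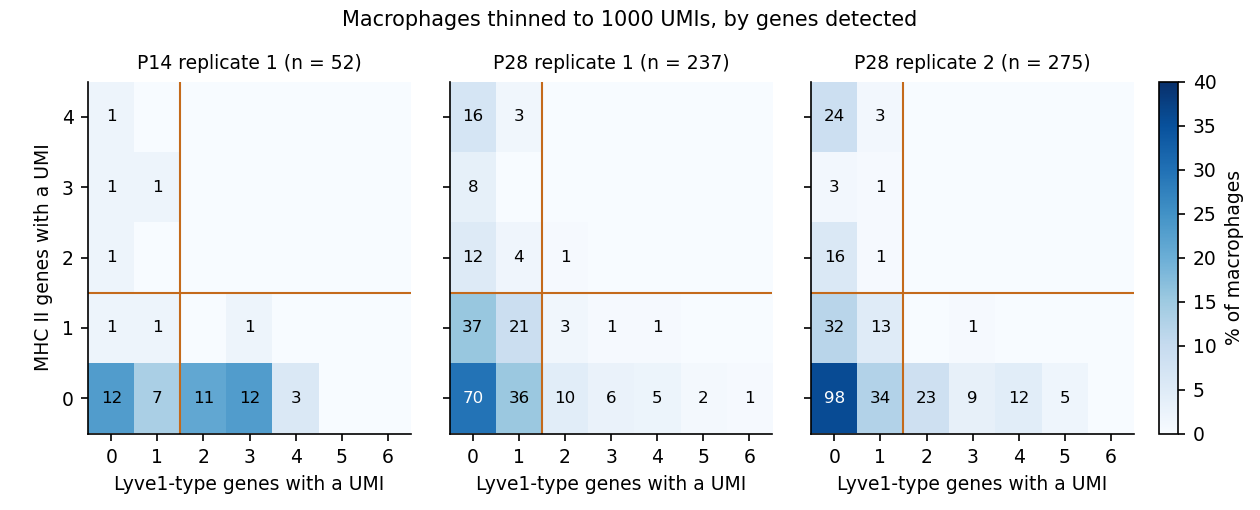
Macrophages of each library, thinned to 1000 UMIs, by the number of Lyve1-type genes (of 6, horizontal axis) and MHC II genes (of 4, vertical axis) with a UMI; numbers are macrophages, colour is their percentage of the library and lines mark the calls at 2 genes. The upper right field, positive for both, holds 1 macrophage.

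MHC II-positive and MHC II-negative macrophages were compared in the P28 libraries alone, since P14 held 4 positive ones, and without a library term because 2 sums stood against 2. The MHC II-positive ones had higher levels of 45 of 6814 genes (0.66%) and lower levels of 15 (0.22%). With the libraries as a replicate block they were 143 and 40, which included all of the 45 and 15. Without mixed barcodes 2 genes remained higher and 15 were lower, 10 of them the same. Mixed barcodes made up 18.2% and 41.7% of the positive and 35.2% and 44.9% of the negative macrophages at P28.

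*Ciita* had the largest rise (log2 change 5.45 ± 0.95, edgeR adjusted p = 0.040) but only 17 UMIs over the sums. Among genes with at least 30 UMIs, *Ccr2*, the receptor that brings monocytes into tissue, led the rise. It stood at 271 CPM in MHC II-positive and 15.4 CPM in MHC II-negative macrophages of P28 replicate 1, and at 387 and 30.9 CPM in P28 replicate 2. Its log2 change was 4.04 ± 0.37 (edgeR adjusted p = 0.00411) and 3.56 without mixed barcodes. *H2-DMb1*, which loads peptides onto MHC II, rose by 3.65 ± 0.39, and by 3.24 without mixed barcodes, and was with *Ccr2* the only gene higher in both fits. The 7 monocyte markers summed to 354 and 387 CPM on the positive side, of which *Ccr2* itself made up 271 and all 387 CPM, and to 52.1 and 52.4 CPM on the negative side, where 4 and 5 of them had a UMI. The part of monocytes in the difference was not tested.

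*Plbd1*, *Mcub*, *Klra2* and *Alcam* followed with changes from 2.79 to 3.45. *Csf2ra* rose by 2.17 ± 0.27 and *H2-DMa* by 2.13 ± 0.25. *Ccl6*, a chemokine gene, and *Lgals3*, a galactose-binding lectin, rose by 2.23 ± 0.33 and 2.00 ± 0.36. *Fth1*, the ferritin heavy chain, rose by 1.06 ± 0.16. Of 8 antigen presentation genes outside the split 3 rose, and of 24 identity genes 4 rose, among them *Ptprc*, *Ctss* and *Lyz2*. Without mixed barcodes the changes of these 3 genes were 0.74, 0.47 and 0.06. Those of *Csf2ra*, *H2-DMa*, *Ccl6*, *Lgals3* and *Fth1* were 1.43, 1.16, 1.26, 1.29 and 0.75. None of these genes passed the test there.

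Of 11 Lyve1-type genes tested, 6 fell on the MHC II-positive side and none rose. Genes nearly absent from the positive side, such as *Lyve1*, were tested only because of their negative-side level. They could only be called lower, so these counts are a description. *Mrc1* fell by 2.13 ± 0.28, *F13a1*, the clotting factor XIII chain, by 3.17 ± 0.42, *Pf4* by 1.93 ± 0.26, *Stab1* by 1.54 ± 0.26 and *Maf* by 1.74 ± 0.28. *Lyve1* had 1 UMI on the positive side against 317, a ratio of 51.8 with a counting interval of 9.23 to 2051. *Crybb1*, a crystallin gene, likewise had 1 UMI. *Cd209f* and *Cd38* had none on the positive side, and the negative side stood at least 11.9 and 5.88 times above 3 UMIs. *Hba-a1* and *Hba-a2*, the haemoglobin α genes, fell by 3.87 ± 0.71 and 3.90 ± 0.73, but by 0.05 and 0.08 and not past the test without mixed barcodes. In P28 replicate 1, 85.7% of the *Hba-a1* UMIs of the negative side lay in 1 barcode.

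Lyve1-type-positive and Lyve1-type-negative macrophages were compared over all 3 libraries with a library term. The positive ones had higher levels of 50 of 2733 genes (1.83%) and lower levels of 22 (0.805%). Without P28 replicate 2 the counts were 0 and 5, with 155 and 103 at an unadjusted p under 0.05 in edgeR. Without P14 they were 232 and 145. Without mixed barcodes they were 93 and 119, of which 41 and 16 were the same genes.

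The 4 further genes of the Lyve1-type list that could be tested all rose. *Pf4* stood at 4199, 3364 and 2649 CPM on the positive and at 1065, 565 and 493 CPM on the negative side (log2 change 2.20 ± 0.18, edgeR adjusted p = 0.00491). *Maf* rose by 2.07 ± 0.19, *Stab1* by 2.05 ± 0.35 and *Gas6*, a bridge between dying cells and phagocytes, by 2.14 ± 0.38. *Cd209f* stood at 490, 562 and 636 CPM against 0, 30.3 and 37.7 CPM. *Fcna*, a secreted lectin of the complement system, stood at 184, 470 and 296 CPM against 51.4, 5.83 and 16.8 CPM. *Ednrb*, an endothelin receptor gene, *Tslp*, a cytokine gene, *Ccl24*, which draws eosinophils, and *Cryba4*, a crystallin gene, rose by 3.14 to 3.48.

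Further listed genes were higher on the positive side. *Slc40a1* rose by 2.41 ± 0.35 and *Cfp* by 2.51 ± 0.42. *Cd36* rose by 1.72 ± 0.23, *Adgre1* by 1.38 ± 0.23, *Ccl2* by 2.12 ± 0.35, *Ccr1* by 1.55 ± 0.28 and *Igf1* by 1.56 ± 0.29. Of 20 lysosome genes none passed the edgeR test in either direction, while 4 were higher and 3 lower at an unadjusted p under 0.05, and DESeq2 called 1 higher and 1 lower.

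MHC II genes were the leading genes that fell. *H2-Eb1* stood at 0, 8.39 and 0 CPM on the positive and at 455, 516 and 576 CPM on the negative side. That is 1 UMI against 916, a ratio of 235 with a counting interval of 42.0 to 9284. *H2-Aa* had 2 UMIs against 826, a ratio of 106 (29.2 to 876). *Cd74* stood at 49.0, 126 and 32.1 CPM against 1058, 1844 and 1808 CPM and fell by 4.73 ± 0.39. *H2-Ab1* fell by 5.51 ± 0.55. At P14, 88.4% of the *H2-Aa* UMIs lay in 1 barcode, while at P28 no barcode held more than 12.5% of them on the MHC II-positive side. Without mixed barcodes the changes were -7.92 for *H2-Eb1*, -7.02 for *H2-Aa*, -5.73 for *H2-Ab1* and -5.40 for *Cd74*.

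*Ocm* and *Pcp4*, genes of outer hair cells and sensory epithelium, were also lower on the positive side, by -5.50 ± 0.41 and -4.83 ± 0.58. *Ocm* stood at 36.7, 8.39 and 19.3 CPM against 2343, 474 and 291 CPM. At P14, 97.8% of the *Ocm* UMIs of the negative side lay in 1 barcode, and at P28 24.9% and 26.9%. Summed outer hair cell markers stood at 2901, 700 and 476 CPM on the negative and 91.8, 50.3 and 70.7 CPM on the positive side, and mixed barcodes made up 24%, 34.3% and 47.1% of the negative and 18.5%, 16.7% and 32.0% of the positive macrophages. Their part in this difference was not tested, and both genes were too low to be tested without mixed barcodes. *Cd9*, a tetraspanin gene, fell by 2.23 ± 0.37.

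**Figure D4:**
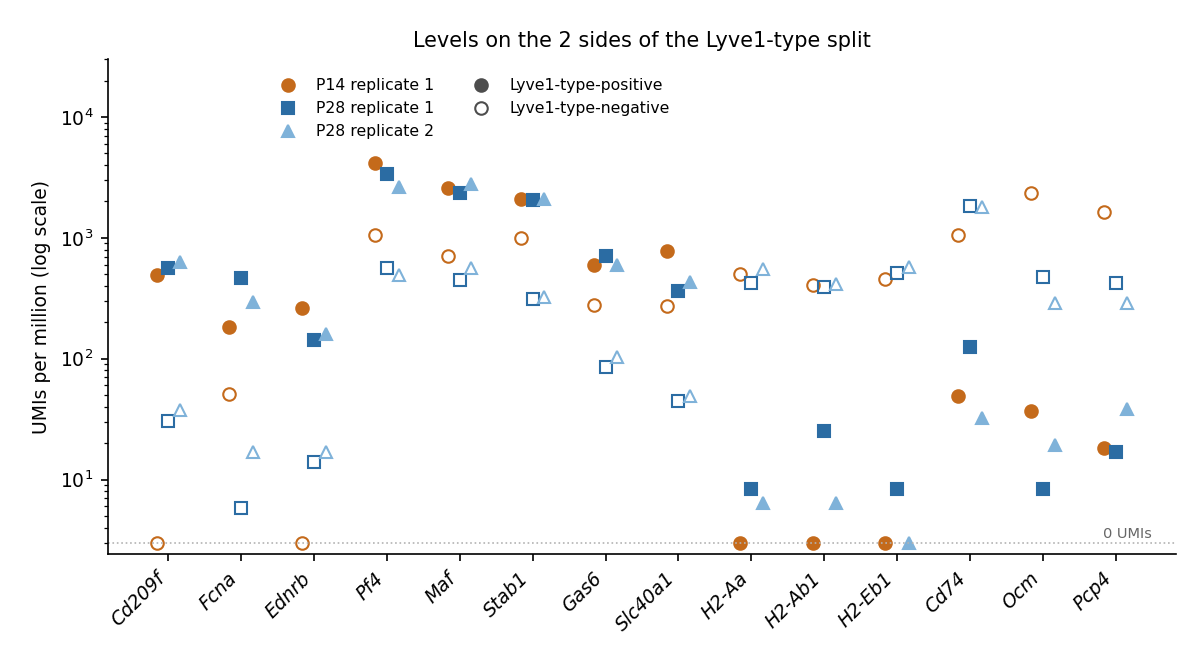
Levels in CPM (log axis) of 14 genes in Lyve1-type-positive (filled) and Lyve1-type-negative (open) macrophages of each library; points on the dotted line have 0 UMIs. *Cd209f* to *Slc40a1* lie higher and *H2-Aa* to *Pcp4* lower on the positive side in each library.

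Macrophages with a UMI in at least 2 of 10 cell cycle genes, at 1000 UMIs, were 5 of 52 at P14 (9.62%, 3.20 to 21.0), 5 of 237 in P28 replicate 1 (2.11%, 0.688 to 4.85) and 3 of 275 in P28 replicate 2 (1.09%, 0.226 to 3.15), and other barcodes reached 2.73%, 0.123% and 0.346%. Unthinned shares of the macrophages were 11.7%, 6.15% and 1.05%. Macrophages with at least 3 of 12 interferon-response genes were 3.85% at P14 (0.469 to 13.2), 35.4% in P28 replicate 1 (29.4 to 41.9) and 24.4% in P28 replicate 2 (19.4 to 29.9). The same share in other barcodes moved in the same order, at 0.321%, 8.68% and 4.48%. Unthinned, the interferon shares were 43.3%, 61.9% and 53.5%.

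The last comparison set P14 beside P28. With 1 library at P14 there was no test. A gene was counted only if its P14 level was at least 2-fold from both P28 libraries, its exact Poisson interval touched neither of theirs, and it reached 100 CPM at the age where it was higher. Of 1802 genes that reached this level, 241 were higher at P14 (13.4%) and 185 at P28 (10.3%). Under a 3-fold rule the larger count was at P28 (59 at P14 and 113 at P28). The same held when mitochondrial, ribosomal protein and haemoglobin genes were left out of the CPM (208 and 293). Without mixed barcodes and after thinning, given below, the larger count was at P14. The pools also differed in sex-linked RNA. *Xist*, expressed from the inactive X of females, stood at 396, 0 and 1.14 CPM in macrophages and at 397, 0.254 and 0.312 CPM in other barcodes, and the Y-linked *Ddx3y* at 13.1, 91.5 and 139 CPM. Age and the sex of the pooled mice therefore cannot be told apart.

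Of the 241 genes higher at P14, 228 were above the level of other barcodes at that age, where 1078 of the 1802 genes were (59.8%). Of the 185 higher at P28, 39 were above other barcodes in both P28 libraries, where 891 of the 1802 were (49.4%). A gene chosen for a high level is more likely to exceed other barcodes at that age, so these shares are a description. In other barcodes, 27 of the 241 and 64 of the 185 passed the same rule. Leaving out mixed barcodes gave 133 genes on the P14 side, 107 of them the same, and 82 on the P28 side, 43 of them the same. With every macrophage thinned to 1000 UMIs the counts were 91 and 67. In Lyve1-type-negative macrophages alone, an alternative added after the shares were seen, 174 of the 241 and 159 of the 185 also passed.

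The counts of listed genes are read against 13.4% of all genes. Genes above other barcodes at P14 were 228 of the 241 and 1078 of the 1802. For lists of such genes 13.4% is therefore a low mark, and the counts are a description. Of 20 lysosome genes 11 were higher at P14 and none at P28, among them *Ctsd* and *Ctsb* with the levels given above. Of 9 lipid-associated genes 6 were higher at P14, of 8 Lyve1-type genes 6, of 6 iron genes 5, of 11 scavenging genes 5 and of 22 identity genes 5. *Trem2*, *Mrc1*, *Hmox1*, *Slc40a1* and *Apoe* were among them. At P28, against 10.3% of all genes, 2 of 8 antigen presentation genes were higher (*Cd74* and *H2-Eb1*), as were 3 of 9 immediate early genes and 2 of 4 interferon genes.

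The genes named for each age were taken only from those above other barcodes at the age of the higher level. Among them *Fabp5*, a fatty acid-binding protein gene, had the largest ratio at P14. It stood at 956 CPM (95% Poisson interval 849 to 1072) against 11.1 (5.52 to 19.8) and 4.54 (1.24 to 11.6) CPM at P28. It was found in 23 of the 60 P14 macrophages, and 20.2% of its UMIs lay in 1 barcode. The Lyve1-type-negative side held 2027 CPM of it at P14 and the positive side 73.4 CPM. Without mixed barcodes it stood at 1285 CPM at P14, and other barcodes held 32.3 CPM. *Apoc1*, another lipid carrier gene, stood at 311 CPM against 23.1 and 20.4 CPM, with 42.1% of its P14 UMIs in 1 barcode. *Npl*, an enzyme of sialic acid breakdown, stood at 131 CPM against 15.1 and 15.9 CPM, and was spread over 23 of 60 macrophages.

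The other genes named for P14 were histone and ribosomal RNA-associated genes. The histone genes *Hist1h2ap*, *Hist1h2ae* and *Hist1h1b* stood at 619, 262 and 311 CPM at P14, with 65.6%, 61.3% and 78.9% of their UMIs in 1 barcode. *AY036118* and *Gm42418*, which lie at ribosomal RNA repeats, were at 507 and 6252 CPM at P14 and also passed the rule in other barcodes.

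Among the genes higher at P28, *Ifitm3*, an interferon-induced antiviral gene, kept its difference without mixed barcodes. It stood at 128 CPM at P14 (90.8 to 175) and at 1591 (1514 to 1672) and 970 (906 to 1037) CPM at P28, and at 94.8, 1605 and 888 CPM without mixed barcodes. At 1000 UMIs it was detected in 11.5%, 59.5% and 48.7% of macrophages. Other barcodes moved the same way, at 131, 810 and 650 CPM. *Creb5*, a transcription factor gene, stood at 22.9, 171 and 161 CPM. *Rps27rt*, a copy of a ribosomal protein gene whose reads may be shared with *Rps27*, stood at 29.5, 184 and 193 CPM. At 1000 UMIs *Creb5* was detected in 3.85%, 11.8% and 12.7% and *Rps27rt* in 1.92%, 16.9% and 17.5% of macrophages. The exact intervals of the ages overlapped for *Creb5* but not for *Rps27rt*.

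The other genes described here from this group had lower P28 levels once mixed barcodes were left out. *Enpp2*, the secreted enzyme autotaxin, stood at 3.27, 314 and 367 CPM, and at 0, 40.1 and 110 CPM without mixed barcodes. *Dcn*, a fibroblast matrix gene, stood at 75.3, 686 and 897 CPM, and at 4.74, 187 and 300 CPM without them. *Aard* fell in the same way to 0, 42.3 and 59.4 CPM, and *Mmp2*, a matrix protease, to 28.4, 26.7 and 65.4 CPM, where P14 was no longer below P28 replicate 1. Of the 19 marker genes of other cell types among the 1802 genes, 10 were higher at P28 and 2 at P14, where the shares of all genes were 10.3% and 13.4%.

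**Figure D5:**
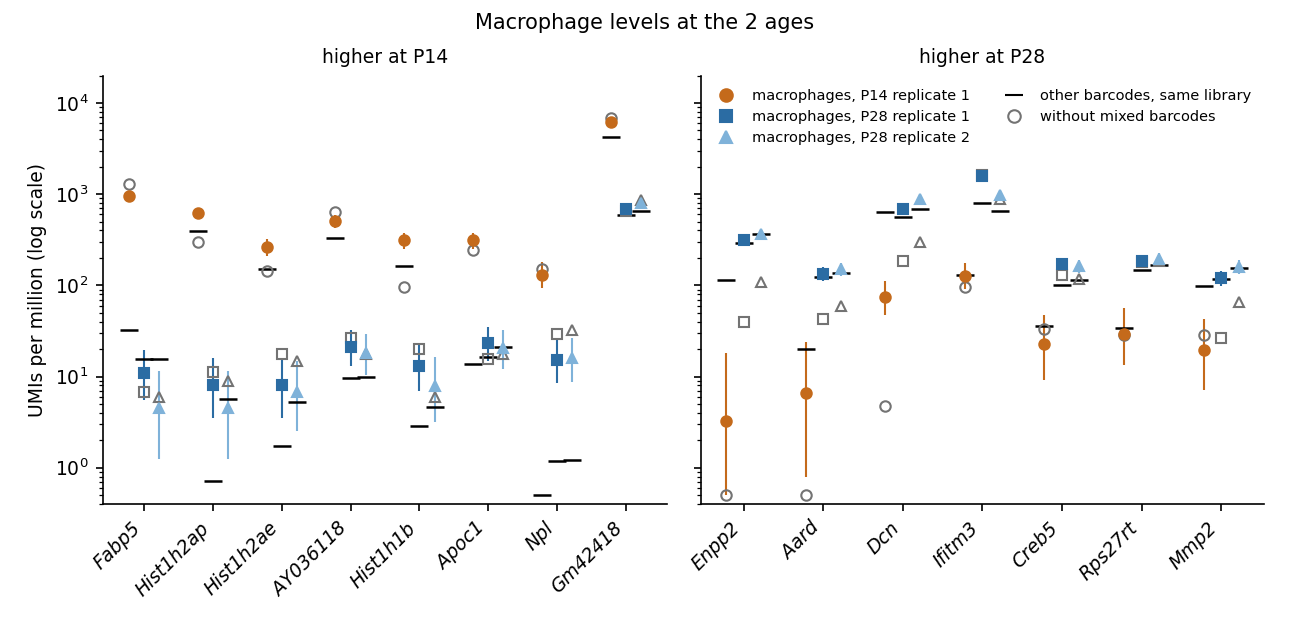
Levels in CPM (log axis) with 95% Poisson intervals of named genes of each age, in each library. They have the largest ratios among genes above other barcodes at the age of the higher level. Symbols are macrophages (filled), macrophages without mixed barcodes (grey, open) and other barcodes (dashes). Values under 0.5 are drawn at 0.5. *Fabp5* and *Npl* at P14 stay high without mixed barcodes, and *Mmp2* at P28 does not.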

How the data were processed

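Cochlear cells were captured with 10x Genomics 3′ chemistry. The deposited values are raw UMI counts per gene and barcode, which the authors made with Cell Ranger on mm10 (GRCm38). The submitters' processing notes give version 6.0.1 and the file header 5.0.1. They were used as deposited. Depth is given in the report, and intervals cover counting error only.

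Counts were summed per class and library and tested in edgeR 4.0.16 (TMM, filterByExpr, quasi-likelihood, Benjamini-Hochberg, threshold 0.05, R 4.3.3), with the library as a term except in the MHC II split. The library pairs the sums because both come from one pool of mice. Correlations of deviations were 0.41, 0.15 and 0.49 against other barcodes, 0.45, -0.01 and 0.45 against the B lineage, and 0.44, -0.20 and 0.66 in the Lyve1-type split. Rule genes of a class were left out of its tests. The edgeR and DESeq2 fits were tried on simulated sums with known changes. DESeq2 1.42.0, other filters and limits, leaving out each library and leaving out mixed barcodes were alternatives.

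Named genes were those with the largest changes in each direction. These were 15 higher and 5 lower against other barcodes, then per direction 8 against the B lineage and 6 per split, and 8 per age. Where a test was run, they had at least 30 UMIs, an adjusted p under 0.05 and the same direction in every library of the fit. The genes named per age had no test and no p-value. They passed the rule for the ages and lay above other barcodes at the age of the higher level. Ratios between ages had 1 CPM added. Further genes came from lists. Some genes that these rules name are not reported here. The members and lists were chosen with earlier results of these data known. Leaving out mixed barcodes in the splits, and Lyve1-type-negative macrophages alone between ages, were chosen after seeing the data.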

Additional observations from a re-analysis of the deposited data

Results flagged for a closer look

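Barcodes over the mitochondrial limit were outside every comparison, yet some carried the macrophage genes. A UMI in at least 3 of the 5 rule genes was found in 2.01% of 498 such barcodes at P14, 2.59% of 5986 in P28 replicate 1 and 2.75% of 10778 in P28 replicate 2. These are 10, 155 and 296 barcodes. Within the limit the shares were 3.61%, 4.6% and 4.05%, and at P14 the exact intervals of both shares overlapped (0.967 to 3.66 against 2.77 to 4.62). The shares rest on the genes of the selection itself and are given as a description.

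For 3 listed genes the macrophage level lay on opposite sides of the level in other barcodes at the 2 ages, with exact Poisson intervals of the classes that did not overlap in any library. The log2 ratio of *Dcn* was -3.05 at P14 and 0.29 and 0.38 at P28. For *Mbp*, a myelin protein gene, it was -4.18 at P14 and 0.80 and 0.49 at P28, and the other barcodes held 668, 56.7 and 67.8 CPM. For *Spp1* it was 1.27 at P14 and -2.34 and -1.10 at P28. Without mixed barcodes, macrophages held 187 and 300 CPM of *Dcn* and 42.3 and 62.4 CPM of *Mbp* at P28, where the other barcodes held 562 and 688 CPM and 56.7 and 67.8 CPM, so that neither gene was then above them. *Spp1* stood at 142 CPM at P14 and at 82.5 and 187 CPM at P28 without mixed barcodes. With 1 library at P14, the difference between the ages was not tested.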

How the results depend on the processing

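The number of macrophages was 965 with a mitochondrial limit of 30% and 395 without mixed barcodes. Against other barcodes, leaving out 1 library gave 1057 to 2069 higher and 824 to 1910 lower genes, asking 10 UMIs of every sum gave 832 and 486, no replicate block gave 494 lower, and leaving out mixed barcodes gave 2776 lower. Against the B lineage, leaving out 1 library gave 110 to 561 and 117 to 365, asking 10 UMIs gave 28 and 53, no filter gave 681 higher and leaving out mixed barcodes gave 457 higher. In the MHC II split the replicate block gave 143 and 40, no filter 123 and 172, a split at 500 UMIs 140 and 150, at least 3 of the 4 genes 194 and 191, and leaving out mixed barcodes 2 higher. Leaving out a library was not run there, since 1 sum would stand against 1. In the Lyve1-type split, no replicate block gave 25 and 9, asking 10 UMIs 112 and 67, no filter 196 and 259, a split at 500 UMIs 53 lower, leaving out mixed barcodes 93 and 119, and leaving out 1 library 0 to 232 and 5 to 145. Between the ages, a 3-fold rule gave 59 and 113, leaving out mixed barcodes 133 and 82, and thinning 91 and 67. Limits of 3000 genes and 15000 UMIs gave 141 and 102. Leaving mitochondrial, haemoglobin and ribosomal protein genes out of the CPM gave 208 and 293. No paired analysis was possible because the ages come from different pools. The causes were not tested.

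Direction changed for 5 named genes. *Csf1* moved to -0.85 under the limits of 3000 genes and 15000 UMIs, -1.51 without mixed barcodes and -0.94 after thinning. *Il34* moved to -0.022 in DESeq2, -0.19 to 0.36 with 1 library left out (below 0 without either P28 replicate, -0.09 without replicate 2), -0.61 under those limits and -3.01 without mixed barcodes. *Spp1* ranged from -1.47 without P14 to 0.13 without P28 replicate 1, *Cd74* against the B lineage to 0.33 without mixed barcodes, and *Mmp2* between the ages to 0.086 without them. Of 762 values of single genes against other barcodes, 723 kept direction and side of the threshold, as did 169 of 179 against the B lineage, 139 of 157 in the MHC II split and 157 of 192 in the Lyve1-type split. Depth limits genes under a few UMIs per sum, above all in the 4 MHC II-positive macrophages at P14.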
